A study of Mus musculus with 18 samples.

Results

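The complement genes described here are C1qa, C1qb and C1qc, which encode the chains of C1q, then C2, C3, Cfb and Cfp, and the receptor genes C3ar1 and C5ar1. They are 9 of the 20615 genes in the table and were chosen by name as complement components and receptors of macrophages, with no rule on their values. Earlier results of these data were known when they were chosen. All 9 passed the filter on low counts, which kept 15789 genes. RNA was sequenced from 18 cultures of bone marrow-derived macrophages (BMDMs), 3 in each of 6 groups, from B6 mice and from C57BL/6.NOD-Aec1Aec2 mice (here Aec1Aec2), a Sjögren's syndrome model in which the NOD intervals Idd3 and Idd5 sit on the B6 background. BMDMs of each strain were left untreated (Con), were given CpG, an agonist of TLR9, at 1 µM for 6 h, or were given apoptotic cells (AC) at 5 per BMDM for 2 h, washed and kept for a further 3 h by the sample labels. The study asked whether Aec1Aec2 macrophages respond to ACs otherwise than B6 macrophages do. All groups came from mice 7 to 12 weeks old and from bone marrow cultured with L929 supernatant as the source of M-CSF. The ACs were thymocytes killed with dexamethasone, and the strain of thymocyte given to each culture was not stated for the sequencing. The replicates of a strain came from separate mice, and whether the control, AC and CpG cultures that bear one number share a mouse is not stated.

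Complement is a cascade of plasma proteins that marks microbes and dying cells for uptake. In the classical pathway C1q binds its target and C2, cleaved together with C4, forms the enzyme that cleaves C3. In the alternative pathway factor B (Cfb) joins with cleaved C3 to form the corresponding enzyme, which properdin (Cfp) stabilises, and the fragments C3a and C5a are sensed through C3ar1 and C5ar1. Most plasma complement is made by the liver, whereas C1q and properdin are made largely by myeloid cells, and C1q helps macrophages to take up apoptotic cells.

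The totals over genes were 30688336 to 57139662 estimated counts, with a median of 47912525. Levels are given in CPM, the counts of a gene per unit of library size after TMM scaling. All 8 macrophage markers were present, with a summed level of 15105 to 23748 CPM. The 12 thymocyte and T cell markers summed to 4.41 to 5.08 CPM in AC treated B6 BMDMs, 13.5 to 18.1 CPM in AC treated Aec1Aec2 BMDMs and 4.80 to 11.5 CPM elsewhere, most of it Cd4, with Cd3e at most 0.107 and Trac at most 0.181 CPM in any sample. Means in AC treated B6 BMDMs were 0.163 CPM for Rag1, 0.123 for Dntt, 0.0690 for Themis and 0.182 for Cd8a. In AC treated Aec1Aec2 BMDMs they were 0.0231, 0.00701, 0 and 0.0811 CPM. Cd3d, Cd3e, Cd8b1 and Bcl11b likewise had higher means in the AC treated B6 samples, whereas Cd4, Cd3g, Trac and Lck had lower ones. The 4 B cell markers summed to 8.97 to 26.5 CPM and 3 neutrophil markers to at most 2.74 CPM. The 5 fibroblast and stroma markers summed to 148 to 232 CPM in the Aec1Aec2 samples and to 38.6 to 133 CPM in the B6 samples, most of it Col1a1 and Col1a2. Col3a1 had group means of 8.99 to 10.8 CPM in Aec1Aec2 and 7.36 to 13.4 CPM in B6. Dcn and Pdgfra were at most 1.09 and 1.69 CPM in any sample. The 4 dendritic cell markers summed to 2.36 to 3.30 CPM in AC treated Aec1Aec2 BMDMs, most of it Xcr1, and to at most 1.57 CPM elsewhere. The part of these cells in the results below was not tested. In such bulk samples a change in RNA per cell and a change in the number of cells that carry it cannot be told apart.

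ACs raised C3 and Cfb far more in Aec1Aec2 than in B6 BMDMs, whereas CpG raised both in both strains. The C1q chains, properdin and the receptors moved by less than a factor of 2 in every comparison of this kind. A change passed the test at an adjusted p under 0.05 (edgeR's quasi-likelihood test, Benjamini-Hochberg adjustment over all genes tested). It was called where the log2 fold change was also over 1.3 in size. These are the thresholds in the study's methods, whereas the legend of its volcano plots gives a fold change of 1.3 and P under 0.05. "Rose" and "fell" are used for changes that passed the test. With ACs, 1 of the 9 genes was called higher in B6 (Cfb), where 2.43% of all genes were called higher, and 2 were in Aec1Aec2 (C3 and Cfb), against 7.09% of all genes. By the adjusted p alone, 5 of the 9 rose in B6 and 2 fell, against 20.0% and 18.3% of all genes, and 8 rose in Aec1Aec2, against 28.6%. When libraries were scaled by their totals, 3 rose in Aec1Aec2, against 13.2% of all genes. With CpG, C3 and Cfb were called higher in each strain, against 5.86% of all genes in B6 and 4.81% in Aec1Aec2. By the adjusted p alone, 4 of the 9 rose in B6 and 2 fell, against 28.1% and 29.8% of all genes, and 3 rose in Aec1Aec2 and 2 fell, against 27.8% and 26.4%. The AC and CpG responses of a strain share their control samples, as do the comparisons built from them. ACs were given for 2 h and CpG for 6 h, so stimulus and time cannot be told apart between them.

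**Figure D1:**
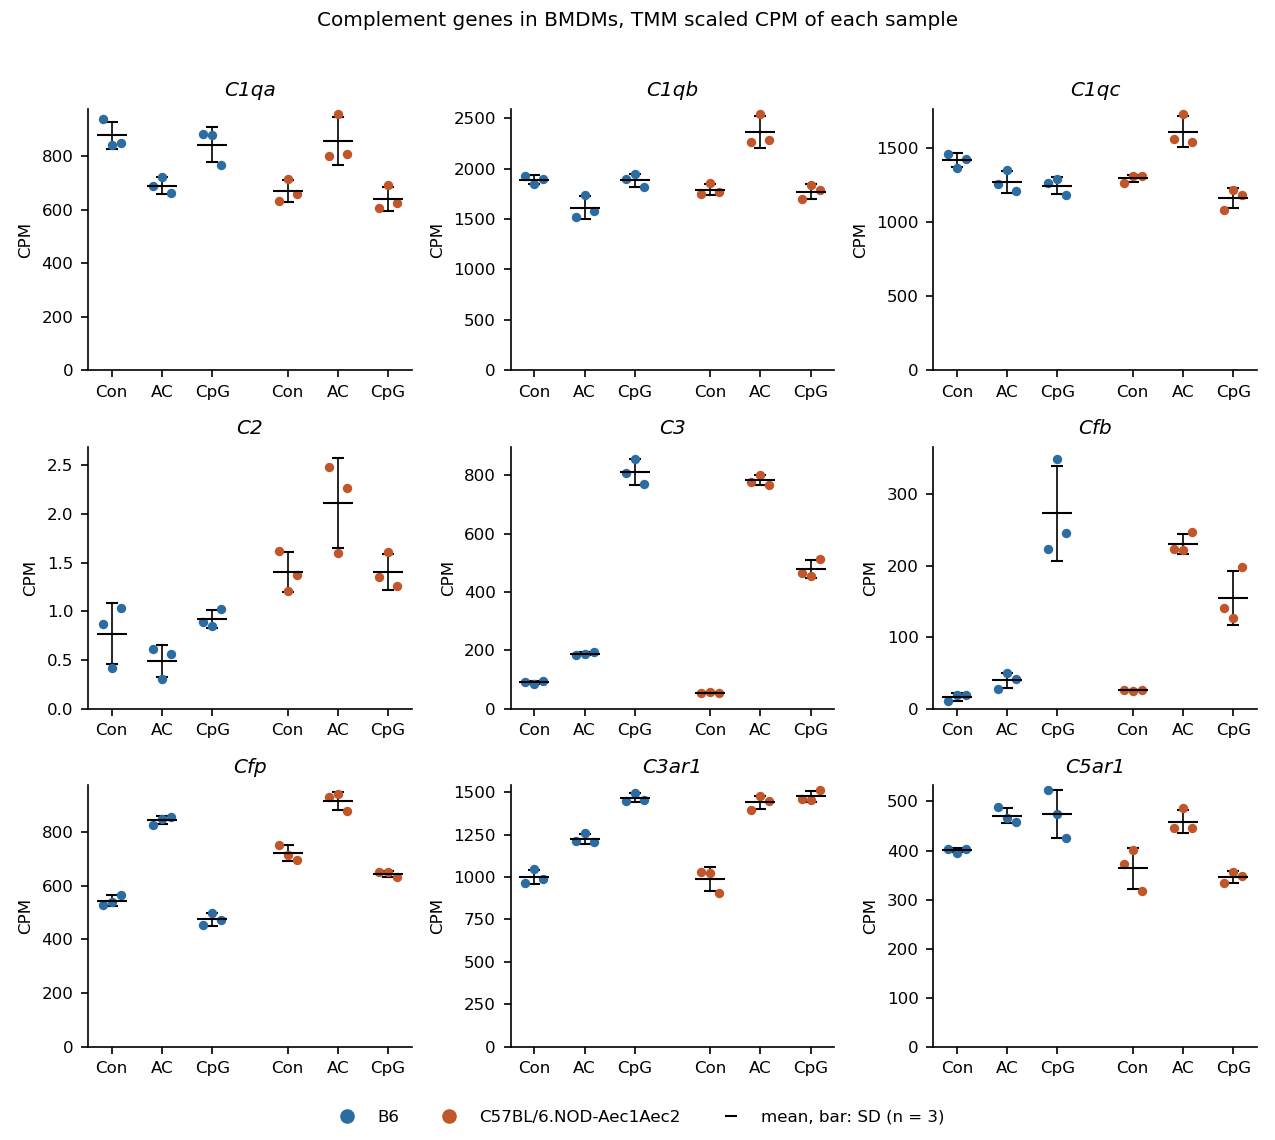
CPM (y axis, TMM scaled, starting at 0) of the 9 complement genes in each of the 18 samples, by treatment (x axis: Con, AC, CpG) and strain (blue B6, orange C57BL/6.NOD-Aec1Aec2), with the mean and SD of 3 samples in black. C3 and Cfb stood high in the CpG treated samples of both strains and in the AC treated Aec1Aec2 samples, where C3 was 768 to 802 CPM, and low in the AC treated B6 samples, where it was 182 to 194 CPM.

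**Figure D2:**
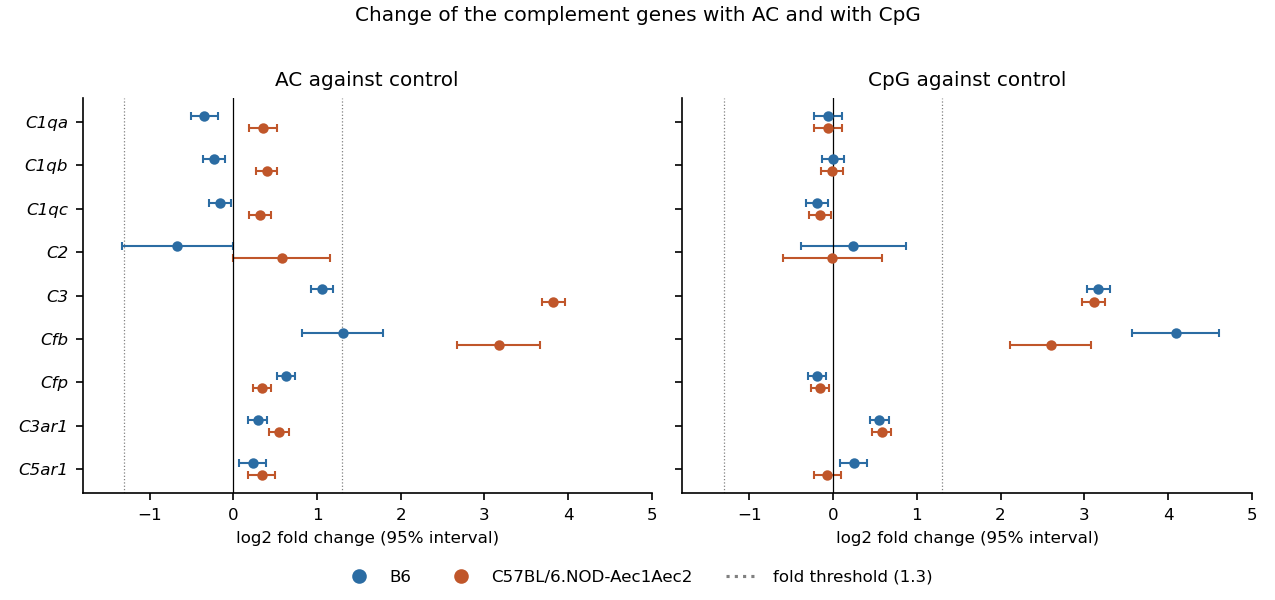
Log2 fold change of each gene (x axis) with its 95% interval, for AC against control (left) and CpG against control (right), in B6 (blue) and Aec1Aec2 (orange). The dotted lines mark the threshold of 1.3. The intervals of C3 lie apart between strains with AC (1.06 in B6 and 3.82 in Aec1Aec2) and overlap with CpG (3.17 and 3.11). The small positive AC values of C1qa, C1qb, C1qc, Cfp and C5ar1 in Aec1Aec2 turn negative when libraries are scaled by their totals.

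The scale used bears on the small changes. TMM takes the bulk of the genes as its reference. The TMM factors were 0.833 to 0.838 in AC treated Aec1Aec2 BMDMs and 1.06 to 1.13 in the controls of both strains. Scaled by library totals instead, the median of all genes tested was -0.43 on the log2 scale for the AC response in Aec1Aec2, -0.35 for the difference in AC response between strains, -0.22 for the CpG response in B6 and -0.14 for that in Aec1Aec2. It was -0.07 for the AC response in B6. Of all genes, 13.2% were then higher and 56.6% lower with ACs in Aec1Aec2 by the adjusted p, against 28.6% and 29.4% with TMM, and of the 9 members 3 rose and 0 fell in place of 8 and 0. With CpG in B6 20.0% of all genes were then higher and 41.6% lower, and in Aec1Aec2 20.6% and 34.9%. Of the members, 3 then rose with CpG in each strain, while 4 fell in B6 and 5 in Aec1Aec2. The changes below are changes relative to the bulk of the genes.

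**Figure D3:**
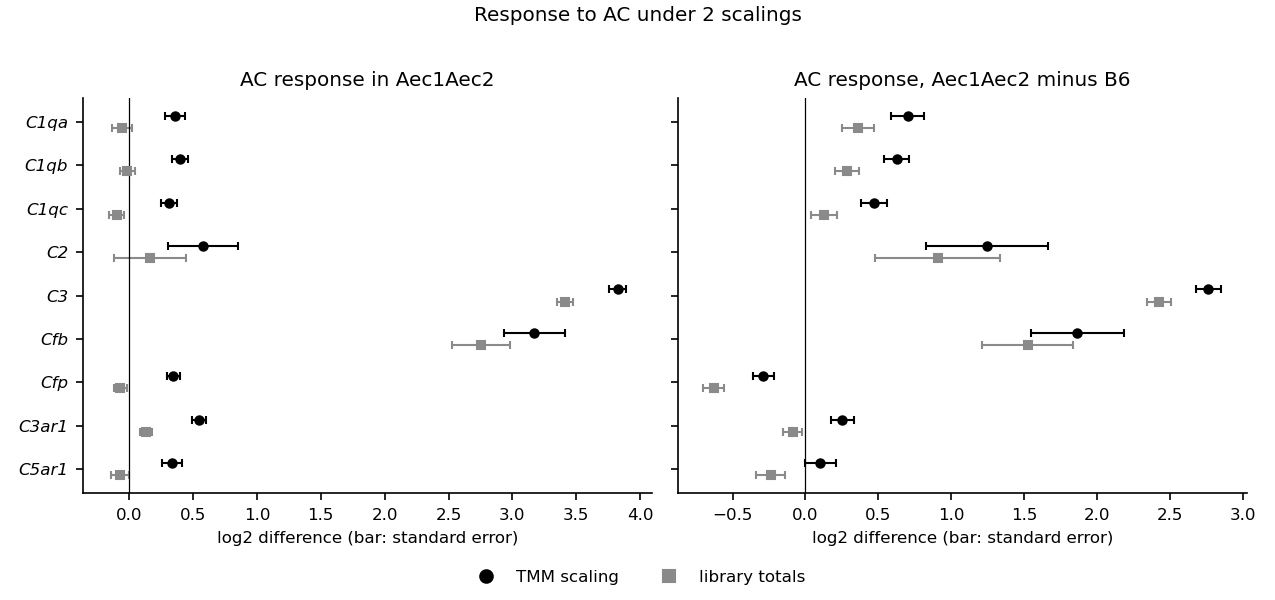
Log2 change with AC in Aec1Aec2 BMDMs (left) and the difference in AC response, Aec1Aec2 minus B6 (right), for each gene under TMM scaling (black circles) and under library totals (grey squares), with standard errors. C3 and Cfb stay at 1.52 or above in both panels under both scalings, while C1qa, C1qb, C1qc, Cfp and C5ar1 move from above to below 0 in the left panel, and C3ar1 and C5ar1 do so in the right one.

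C1q was the most abundant of these transcripts. The 3 genes lie side by side on the minus strand of chromosome 4 (mm10), C1qb at chr4:136880129-136886187, C1qc at chr4:136889804-136893065 and C1qa at chr4:136895917-136898803. Per kilobase of exon, the mean level in control B6 BMDMs was 1737 CPM for C1qb, 843 for C1qa and 733 for C1qc, against 314 for Cfp, 232 for C3ar1, 156 for C5ar1, 17.5 for C3, 5.70 for Cfb and 0.199 for C2. C1qb and C2 thus marked the upper and lower ends of the range.

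With ACs the C1q chains were lower in B6 BMDMs and, relative to the bulk of the genes, higher in Aec1Aec2 BMDMs, a rise that vanished when libraries were scaled by their totals. C1qb was 1927, 1843 and 1899 CPM in control B6 BMDMs and 1520, 1739 and 1580 CPM after ACs. In Aec1Aec2 BMDMs it was 1752, 1859 and 1764 CPM without treatment and 2262, 2540 and 2283 CPM after ACs. Every AC treated B6 sample was below every B6 control, and every AC treated Aec1Aec2 sample was above every Aec1Aec2 control. C1qb fell by 0.23 on the log2 scale in B6 (SE 0.061, adjusted p = 0.00599) and rose by 0.40 in Aec1Aec2 (SE 0.061, adjusted p = 1.59e-05), a value that was -0.015 under library totals.

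C1qa did likewise. It was 936, 843 and 850 CPM in control B6 BMDMs and 686, 722 and 661 CPM after ACs, and it was 633, 714 and 657 CPM in control Aec1Aec2 BMDMs and 798, 958 and 809 CPM after ACs. In both strains the AC treated and control samples did not overlap. The log2 change was -0.35 in B6 (SE 0.079, adjusted p = 0.00178) and 0.36 in Aec1Aec2 (SE 0.079, adjusted p = 0.000731), the latter -0.057 under library totals. C1qc changed by -0.16 in B6, which did not pass the test (adjusted p = 0.0568) but was -0.23 and did under library totals (adjusted p = 0.00682), and by 0.31 in Aec1Aec2 (SE 0.063, adjusted p = 0.000263), which was -0.10 under library totals.

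The difference in AC response between strains passed the test for all 3 chains with TMM, and for C1qa and C1qb with both scalings. For C1qa it was 0.70 on the log2 scale (SE 0.11, 95% interval 0.47 to 0.94, adjusted p = 6.28e-05), and 0.36 under library totals (adjusted p = 0.0104). For C1qb it was 0.63 (SE 0.087, adjusted p = 1.30e-05), and 0.29 under library totals (adjusted p = 0.0077). For C1qc it was 0.47 (SE 0.088, adjusted p = 0.000346), but 0.13 under library totals, where it no longer passed the test (adjusted p = 0.24). With CpG the changes of C1qa and C1qb, from -0.061 to -0.0031, did not pass the test in either strain. Under library totals they did, at -0.24 for C1qa and -0.18 for C1qb in B6 (adjusted p = 0.0121 and 0.0114) and at -0.19 and -0.14 in Aec1Aec2 (adjusted p = 0.0475 and 0.0467). C1qc fell with CpG by 0.19 in B6 (adjusted p = 0.0153) and by 0.16 in Aec1Aec2 (adjusted p = 0.0406). The first did not pass the test without B6 control replicate 1 or CpG treated B6 replicate 3 (adjusted p up to 0.0975), nor did the latter without Aec1Aec2 control replicate 2 or 3 or CpG treated Aec1Aec2 replicate 1 or 3 (adjusted p up to 0.192).

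With ACs the chains were higher in Aec1Aec2 than in B6 by 0.31 for C1qa, 0.55 for C1qb and 0.34 for C1qc (adjusted p = 0.0032, 5.22e-07 and 0.000179), of which library totals left 0.0095, 0.25 and 0.040.

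The proportions of the chains were compared as well, a measure that no scaling of libraries can alter. Of the summed level of the 3 chains per kilobase, C1qa made up 25.4% ± 0.77 (SD, n = 3) in control B6 BMDMs and 21.7% ± 0.59 in control Aec1Aec2 BMDMs. After ACs its share was 23.7% ± 0.62 in B6 and 21.5% ± 0.64 in Aec1Aec2, and after CpG it was 25.4% ± 0.87 and 21.6% ± 0.62. The C1qa shares of the Aec1Aec2 samples were below those of the B6 samples in each treatment with no overlap. The C1qb shares were above those of B6 in each treatment with no overlap (55.3 to 56.0% against 51.7 to 52.9% in the controls). Since the 3 shares are parts of a whole, they do not vary independently. The C1qc shares overlapped in the controls. They were lower in Aec1Aec2 with ACs (21.6 to 22.1% against 23.0 to 24.0%) and higher with CpG (20.8 to 21.4% against 20.1 to 20.3%). For C1qa, with 3 samples against 3, the exact two-sided permutation test gave p = 0.1 for each treatment, the smallest p this design allows, and 0.1 after adjustment over the 3 tests. The shares of C1qb and C1qc were not tested. In the fit over all genes C1qa was lower in Aec1Aec2 than in B6, with a log2 difference of -0.39 both without treatment (adjusted p = 0.00183) and with CpG (adjusted p = 0.00152), whereas the differences of C1qb and C1qc there did not pass the test.

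**Figure D4:**
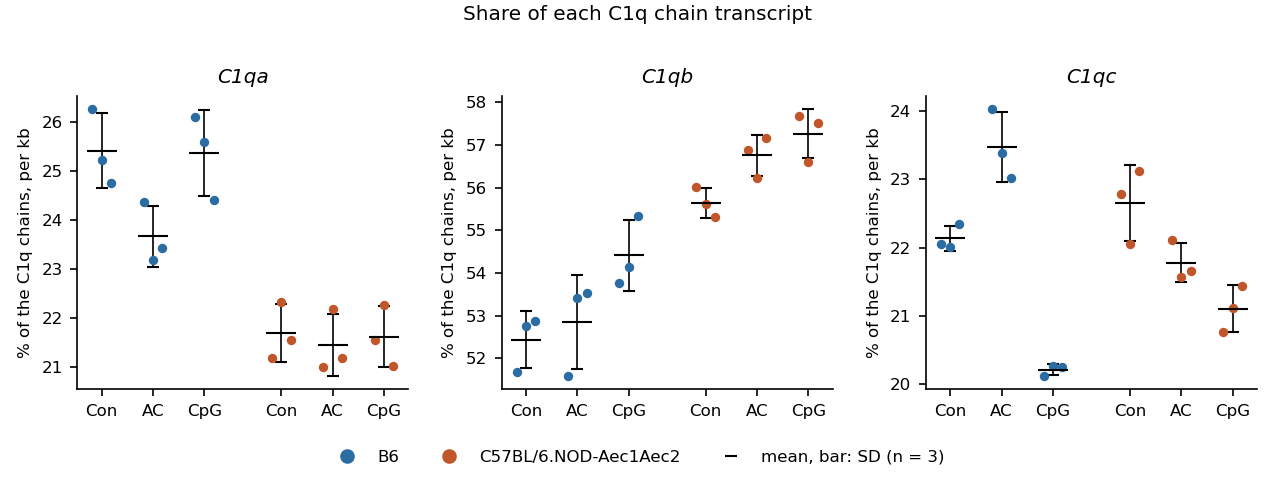
Share of each C1q chain in the summed CPM per kilobase of exon of the 3 chains (y axis, percent, not starting at 0), by treatment and strain, for each sample (points) with the mean and SD of 3 samples (black). The share of C1qa was 23.2 to 26.3% in the B6 samples and 21.0 to 22.3% in the Aec1Aec2 samples.

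C3, the central component on which all pathways converge, lies at chr17:57203970-57228136 on the minus strand. It is among the genes that the study itself singled out as most raised by ACs in Aec1Aec2 BMDMs. The study described none of those genes as upregulated in AC treated B6 BMDMs. In the test used here C3 did rise there, under the fold threshold, as given below. In B6 BMDMs it was 91.8, 83.3 and 95.4 CPM without treatment, 182, 188 and 194 CPM after ACs and 807, 857 and 769 CPM after CpG. In Aec1Aec2 BMDMs it was 55.0, 57.4 and 53.4 CPM without treatment, 778, 802 and 768 CPM after ACs and 466, 456 and 513 CPM after CpG. From low to high the groups were control Aec1Aec2, control B6, AC treated B6, CpG treated Aec1Aec2, AC treated Aec1Aec2 and CpG treated B6, and all neighbours in that order were separate except the last pair, whose samples overlapped.

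In B6 BMDMs the rise of C3 with ACs was 1.06 on the log2 scale (SE 0.061, adjusted p = 1.68e-10), a 2.08-fold change that stayed under the fold threshold. The response in Aec1Aec2 exceeded that in B6 by 2.76 (SE 0.088, 95% interval 2.58 to 2.95, adjusted p = 1.52e-13). With CpG the C3 responses of both strains, 3.17 in B6 (SE 0.065) and 3.11 in Aec1Aec2 (SE 0.066), differed by -0.05 (95% interval -0.24 to 0.13, adjusted p = 0.784). Set against CpG, ACs gave a lower C3 level in B6 (log2 difference -2.11, adjusted p = 3.17e-14) and a higher one in Aec1Aec2 (0.71, adjusted p = 9.74e-09). C3 was lower in Aec1Aec2 than in B6 without treatment, with a difference of -0.71 (SE 0.062, adjusted p = 2.50e-07), and with CpG, with -0.76 (SE 0.060, adjusted p = 5.88e-08). With ACs it was higher there by 2.06 (SE 0.062, adjusted p = 9.56e-15). Leaving out any one sample kept the difference in AC response between 2.72 and 2.82, and library totals gave 2.42.

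The sequence before the C3 start is printed because C3, of the members called with ACs in Aec1Aec2, is the one with a promoter in the table used. RefSeq promoters, from 250 bases before to 50 after the start in GRCm38.p6, were at hand for 6 of the 9 genes (C1qb, C1qc, C3, Cfp, C3ar1 and C5ar1). The 250 bases before the start of C3, chr17:57228137-57228386, are given 5′ to 3′ on the minus strand, with a match to a C/EBP motif in capitals.
C3: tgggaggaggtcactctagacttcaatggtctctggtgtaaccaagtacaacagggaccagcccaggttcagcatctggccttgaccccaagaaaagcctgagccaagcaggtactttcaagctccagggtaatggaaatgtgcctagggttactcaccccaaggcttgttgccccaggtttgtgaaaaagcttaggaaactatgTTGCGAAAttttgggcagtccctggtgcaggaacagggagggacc
The motifs searched on both strands were TTGCNNAA for C/EBP factors, the core of the interferon-stimulated response element (ISRE), TTCNNNGAA for STAT factors (GAS) and the kappaB consensus. TTGCNNAA was found in the C3 window at -45 from the start and in 10.8% of the 32851 mouse promoters of that length. The 6 windows held 1 other match, GGGGCTCTCC at -41 of C1qc for the kappaB consensus, which 8.46% of all promoters hold. ISRE and GAS matches were found in none of the 6, and in 3.44% and 8.30% of all promoters. A match describes letters in a window and is no evidence of binding.

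Cfb, the protease of the alternative pathway enzyme, lies at chr17:34856374-34862518 and C2, its counterpart in the classical pathway, directly beside it at chr17:34862604-34898265. In B6 BMDMs Cfb was 10.2, 19.5 and 18.6 CPM without treatment, 27.9, 49.8 and 41.0 CPM after ACs and 224, 350 and 246 CPM after CpG. In Aec1Aec2 BMDMs it was 26.5, 25.0 and 25.4 CPM without treatment, 224, 222 and 247 CPM after ACs and 141, 126 and 198 CPM after CpG. The AC treated samples of the strains were far apart, and each treatment lay above the controls of its strain with no overlap.

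Cfb rose with ACs in both strains, by 1.31 on the log2 scale in B6 (SE 0.23, adjusted p = 0.000176) and by 3.17 in Aec1Aec2 (SE 0.24, adjusted p = 9.19e-10). The B6 value is just past the threshold: it was 1.23 under library totals, and 1.06 without B6 control replicate 1, 1.11 without AC treated B6 replicate 2 and 1.28 without AC treated B6 replicate 3. The response in Aec1Aec2 exceeded that in B6 by 1.87 (SE 0.32, 95% interval 1.19 to 2.54, adjusted p = 0.000141). With CpG the order was the other way round. Cfb rose by 4.09 in B6 (SE 0.25, adjusted p = 4.57e-11) and by 2.60 in Aec1Aec2 (SE 0.23, adjusted p = 1.70e-08), and the difference was -1.49 (SE 0.32, 95% interval -2.16 to -0.83, adjusted p = 0.00821). That difference was -1.25 without B6 control replicate 1 and -1.28 without CpG treated B6 replicate 2, both under the fold threshold. B6 control replicate 1 had the lowest Cfb of the 18 samples. Between strains without treatment Cfb was higher in Aec1Aec2 by 0.68 (adjusted p = 0.0482), a call that was lost without that sample (0.43, adjusted p = 0.216), without any 1 of the Aec1Aec2 controls (0.65 to 0.70, adjusted p from 0.0859 to 0.102) and with DESeq2 (0.68, adjusted p = 0.0507). With CpG it was lower there, with a difference of -0.82 (SE 0.22, adjusted p = 0.0112), which was lost without CpG treated B6 replicate 2 (-0.60, adjusted p = 0.0771) and without CpG treated Aec1Aec2 replicate 1 (-0.75, adjusted p = 0.0526) or 2 (-0.69, adjusted p = 0.0631).

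C2 was close to the detection limit, with 72 to 273 counts over the 3 samples of a group. It was 0.86, 0.42 and 1.03 CPM in control B6 BMDMs, 0.62, 0.30 and 0.56 CPM after ACs, and 1.62, 1.21 and 1.38 CPM in control Aec1Aec2 BMDMs, 2.48, 1.60 and 2.27 CPM after ACs. The AC treated samples of the strains did not overlap, while within each strain AC treated and control samples did. The AC responses, -0.67 in B6 (SE 0.32, adjusted p = 0.108) and 0.58 in Aec1Aec2 (SE 0.28, adjusted p = 0.0811), did not pass the test. C2 was higher in Aec1Aec2 than in B6 with ACs by 2.10 (SE 0.30, adjusted p = 1.26e-05). Without treatment the difference was 0.86 (SE 0.29, adjusted p = 0.0442), which lost the test without any of 5 of the 6 samples, at 0.58 to 0.94. The difference in AC response was 1.25 (SE 0.42, adjusted p = 0.0252), and it was 0.91 with an adjusted p of 0.0859 under library totals. Its adjusted p was also above the threshold when any of 6 samples was left out, B6 control replicates 1 and 3, Aec1Aec2 control replicate 2, AC treated B6 replicate 2 and AC treated Aec1Aec2 replicates 1 and 3, with values from 0.98 to 1.19. The exons of C2 share 161 bases with Zbtb12 on the opposite strand, which had 240 to 499 counts in a sample, and the sources used here do not say whether reads were counted by strand. Those of C2 and Cfb also share bases with Gm20547, a gene that runs over both and had at most 14 counts in a sample. The overlap covers 1656 of the 3872 exon bases of C2 and 2246 of the 2825 of Cfb. In the AC treated B6 samples Gm20547 had 0, 13 and 5 counts, where C2 had 31, 16 and 25. In the AC treated Aec1Aec2 samples it had 1, 0 and 0 counts, where C2 had 96, 76 and 101. How reads were divided between the genes was not tested.

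Properdin (Cfp, chrX:20925454-20931555), which stabilises the alternative pathway enzyme, followed another pattern from Cfb. It was 528, 540 and 566 CPM in control B6 BMDMs and 827, 850 and 856 CPM after ACs, and 753, 715 and 697 CPM in control Aec1Aec2 BMDMs and 929, 941 and 878 CPM after ACs. The Aec1Aec2 controls lay between the untreated and the AC treated B6 samples. Cfp rose with ACs in B6 by 0.63 on the log2 scale (SE 0.052, adjusted p = 1.64e-08). The value in Aec1Aec2 was 0.34 (SE 0.051, adjusted p = 1.10e-05), but -0.069 under library totals. The response in Aec1Aec2 was smaller than that in B6, with a difference of -0.29 (SE 0.073, adjusted p = 0.00402), and of -0.63 under library totals. With CpG Cfp fell in both strains, by 0.20 in B6 (adjusted p = 0.00272) and by 0.16 in Aec1Aec2 (adjusted p = 0.0124), the latter lost without Aec1Aec2 control replicate 1 (adjusted p = 0.0628). It was higher in Aec1Aec2 without treatment by 0.41 (SE 0.051, adjusted p = 2.18e-05) and with CpG by 0.44 (SE 0.052, adjusted p = 6.26e-06). With ACs the difference was 0.12, which did not pass the test (adjusted p = 0.0667). It did with DESeq2 (0.14, adjusted p = 0.008), with DESeq2's size factors in edgeR (adjusted p = 0.0286) and without AC treated Aec1Aec2 replicate 3 (0.15, adjusted p = 0.045), whereas under library totals it turned to -0.18 (adjusted p = 0.00319).

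C3ar1, the receptor for C3a (chr6:122847138-122856161), rose with both treatments in both strains. Its mean was 1000 CPM ± 41.4 (SD, n = 3) in control B6 BMDMs, 1225 ± 30.5 after ACs and 1467 ± 26.3 after CpG. In Aec1Aec2 BMDMs it was 986 ± 69.5, 1439 ± 40.6 and 1475 ± 30.9 CPM. The strains overlapped without treatment and with CpG, but not with ACs. The AC response was 0.29 on the log2 scale in B6 (SE 0.055, adjusted p = 0.000307) and 0.54 in Aec1Aec2 (SE 0.055, adjusted p = 6.81e-08). Under library totals it was 0.22 in B6 (adjusted p = 0.00113) and 0.13 in Aec1Aec2 (adjusted p = 0.0197). The difference between these responses, 0.25 (SE 0.078, adjusted p = 0.0150), was -0.089 under library totals, and the difference between strains with ACs likewise went from 0.23 (adjusted p = 0.00168) to -0.067. The CpG responses were 0.55 in B6 (adjusted p = 5.48e-08) and 0.58 in Aec1Aec2 (adjusted p = 3.69e-08).

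C5ar1, the receptor for C5a (chr7:16246743-16259540), was 404, 396 and 403 CPM in control B6 BMDMs and 523, 475 and 425 CPM after CpG, and 372, 400 and 318 CPM in control Aec1Aec2 BMDMs and 333, 356 and 349 CPM after CpG. With CpG the 2 strains did not overlap, and C5ar1 was lower in Aec1Aec2, with a log2 difference of -0.45 (SE 0.077, adjusted p = 0.000324). It rose with CpG in B6 by 0.24 (adjusted p = 0.0107), a value that was 0.062 under library totals (adjusted p = 0.472) and 0.17 without CpG treated B6 replicate 1 (adjusted p = 0.0798), and its change in Aec1Aec2 was -0.070 (adjusted p = 0.466), which under library totals was -0.20 and passed the test (adjusted p = 0.0257). The difference between these responses, -0.31 (95% interval -0.54 to -0.09), did not pass the test over all genes (adjusted p = 0.0998). It did with DESeq2 (-0.34, adjusted p = 0.0419), without Aec1Aec2 control replicate 3 (-0.40, adjusted p = 0.0228) and without CpG treated B6 replicate 3 (-0.41, adjusted p = 0.0353). With ACs the values were 0.23 in B6 (adjusted p = 0.0209) and 0.34 in Aec1Aec2 (adjusted p = 0.000932), and the latter was -0.075 under library totals. The B6 value did not pass the test under library totals (0.16, adjusted p = 0.0813), without B6 control replicate 2 (0.23, adjusted p = 0.0608) or without AC treated B6 replicate 1 (0.21, adjusted p = 0.0768).

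Between strains, none of the 9 genes was called without treatment, where 2.01% of all genes were called in either direction, or with CpG, where 2.61% were. By the adjusted p alone (edgeR), C2, Cfb and Cfp were higher and C1qa and C3 lower in Aec1Aec2 without treatment, against 9.04% and 10.6% of all genes, and with CpG Cfp was higher and C1qa, C3, Cfb and C5ar1 lower, against 10.2% and 9.57%. With ACs, C2, C3 and Cfb were called higher in Aec1Aec2, against 6.24% of all genes, and 7 of the 9 were higher by the adjusted p alone, against 24.0%. Under library totals 4 were higher and 2 lower with ACs, while 13.2% of all genes were higher and 53.1% lower.

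The AC response was larger in Aec1Aec2 past both thresholds for C3 and Cfb, against 4.76% of all genes. By the adjusted p alone it was higher for 7 of the 9 and lower for Cfp, against 19.6% and 18.3% of all genes, and under library totals for 4 and 1 of the 9, against 9.15% and 41.9%. The CpG response was smaller in Aec1Aec2 for Cfb, the one member to pass either rule, against 0.329% of all genes called lower and 2.62% lower by the adjusted p alone. Set directly against each other, ACs gave less C3 and Cfb than CpG in B6 past both thresholds, against 3.47% of all genes, and by the adjusted p alone 1 of the 9 was higher with ACs and 6 were lower, against 23.7% and 22.4%. In Aec1Aec2 none of the 9 was called in this comparison, against 9.18% of all genes in either direction, and 7 were higher with ACs by the adjusted p alone, against 25.7%. Under library totals that count was 3 higher and 1 lower, against 14% and 48.5% of all genes.

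The other genes of the system were taken from a list of 50 complement proteases, regulators and receptors. Rows were found for 34 of them, and 26 had enough counts to be tested. With ACs Cd55 was called higher in each strain, while 3 of the 26 were called lower in B6, against 2.03% of all genes, and 1 in Aec1Aec2, against 5.83%. With CpG Cd55 was called higher and C8g and C5ar2 lower in each strain, where 6.88% of all genes in B6 and 4.45% in Aec1Aec2 were called lower. The median log2 change of the 26 with ACs was -0.33 in B6 and 0.12 in Aec1Aec2, against 0.00 and -0.02 over all genes, and the AC response differed between strains past both thresholds in 4 of them, 3 higher and 1 lower, against 4.76% and 2.76% of all genes. Itgax was under the fold threshold with library totals (1.29). The genes of the list named below are among those called in a response, strain or interaction comparison, with the component gene C4b and the receptors and regulators Cr1l, Itgam, Itgax, Itgb2, C5ar2 and Cd93.

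Among the regulators, Cd55, the decay-accelerating factor of the cell surface (chr1:130439027-130462744), was 43.4, 51.1 and 45.8 CPM in control B6 BMDMs but 6.65, 4.91 and 8.01 CPM in control Aec1Aec2 BMDMs. After ACs it was 125, 158 and 158 CPM in B6 and 35.8, 25.8 and 44.6 CPM in Aec1Aec2. It was lower in Aec1Aec2 in every treatment, with log2 differences of -2.82 without treatment (SE 0.21, adjusted p = 3.99e-08), -2.05 with ACs and -1.60 with CpG. It rose in both strains with ACs, by 1.65 in B6 and 2.41 in Aec1Aec2, and with CpG, by 2.50 in B6 and 3.71 in Aec1Aec2. Its paralog Cd55b had 36 counts over the 18 samples, and reads shared by the pair may have been split between them. The coordinates of the NOD intervals are not given in the sources used here. Cr1l (Crry), another surface regulator, rose by 0.36 with ACs in Aec1Aec2 (adjusted p = 4.53e-05), a value that was -0.049 under library totals.

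Of the receptors, Itgax, the alpha chain of complement receptor 4, was 19.6, 22.8 and 30.4 CPM in control B6 BMDMs and 8.18, 6.68 and 7.69 CPM after ACs, and 24.1, 27.1 and 28.2 against 23.5, 26.4 and 26.4 CPM in Aec1Aec2. It fell in B6 by 1.69 on the log2 scale (adjusted p = 1.61e-08), and the difference in response was 1.64 (SE 0.19, adjusted p = 1.35e-06), or 1.29 under library totals. Itgam, the alpha chain of complement receptor 3, fell with ACs in B6 by 0.33 (adjusted p = 0.00331), and the beta chain Itgb2 had changes of -0.032 in B6 and 0.069 in Aec1Aec2 that did not pass the test. With TMM the AC changes of Itgam and Itgax in Aec1Aec2, -0.12 and -0.055, did not pass it either, but under library totals all 3 fell there, to log2 changes of -0.54 for Itgam, -0.47 for Itgax and -0.34 for Itgb2 (adjusted p = 7.79e-06, 0.00441 and 2.16e-06). C5ar2, the other receptor for C5a, fell with both treatments in both strains, with ACs by 0.76 in B6 (adjusted p = 2.83e-05) and by 2.31 in Aec1Aec2 (adjusted p = 7.00e-12). The difference between these was -1.55 (SE 0.17, adjusted p = 6.15e-07). Cd93, a surface lectin once described as a C1q receptor, fell with CpG by 1.22 in each strain and with ACs by 0.51 in B6 and 0.81 in Aec1Aec2.

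C4b, a gene for C4, had a mean of 1.99 CPM in control B6 BMDMs and 0.49 after ACs, and of 2.10 CPM in control Aec1Aec2 BMDMs and 3.14 after ACs, with SDs from 0.22 to 0.82 (n = 3). The difference in AC response was 2.58 (SE 0.56, adjusted p = 0.00126). The paralog C4a is nearly identical, so the division of reads between the 2 is uncertain. C8g, a chain of the terminal component C8, fell with CpG from 0.83 to 0.24 CPM in B6 (log2 change -1.76, adjusted p = 0.00227) and from 0.94 to 0.36 CPM in Aec1Aec2 (-1.38, adjusted p = 0.0101), on 32 to 138 counts a group, and the latter was -0.99 without CpG treated Aec1Aec2 replicate 1 (adjusted p = 0.0582). Masp1, a lectin pathway protease, was higher in Aec1Aec2 with ACs by 1.49 (SE 0.57, adjusted p = 0.0367) on 29 counts in B6 and 73 in Aec1Aec2. That difference was 1.19 under library totals (adjusted p = 0.0715), and it did not pass the test without AC treated B6 replicate 1 or 3 or AC treated Aec1Aec2 replicate 1 or 2 (adjusted p from 0.0564 to 0.152).

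**Figure D5:**
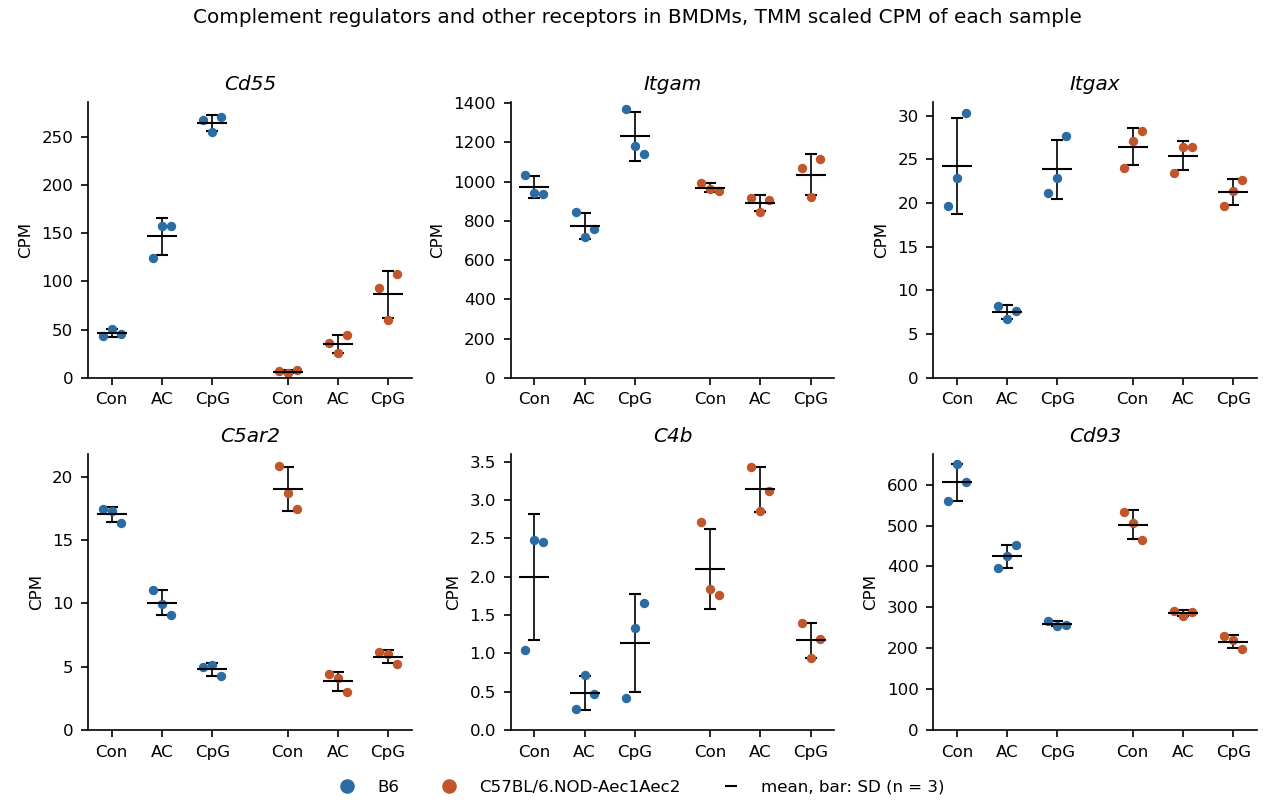
CPM (y axis, TMM scaled, starting at 0) of 6 other complement genes in each of the 18 samples, by treatment and strain, with the mean and SD of 3 samples in black. Itgax was low in the AC treated B6 samples (6.68 to 8.18 CPM) and not in the AC treated Aec1Aec2 samples, and Cd55 was lower in Aec1Aec2 than in B6 in all 3 treatments, under both scalings.

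Across the 18 samples C3, Cfb and C3ar1 had similar profiles, with Pearson's r of log2 CPM of 0.94 between C3 and Cfb, 0.96 between C3 and C3ar1 and 0.94 between Cfb and C3ar1. C1qb and C1qc had an r of 0.82, and Cfp had values between -0.27 and 0.40 with the other members. Of all genes tested, those most like C3 were Mapkapk2, Junb and Tnf, each with an r of 0.99. Those most like Cfb were Otud5 (0.99), Clcn7 (0.98) and Rasa4 (0.98), those most like C1qb were Phc2 (0.93), Scimp (0.92) and Syf2 (0.91), and those most like C5ar1 were Snx3 (0.94), Atp6v0d1 (0.92) and Tagln2 (0.89). These values describe 18 samples that fall into 6 groups and share their scaling, and carry no test.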

How the data were processed

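RNA of 18 BMDM cultures was sequenced with paired-end reads, and groups were taken from the sample labels. The values the authors deposited were estimated counts per gene, not normalized, in 1 table. Alignment was to mm10 with STAR, and Partek's expectation-maximisation tool gave the quantities. Values were rounded for the tests, since 41.1% of them were not whole (tolerance 1e-06). No gene had a total under 10. Analysis used R 4.3.3, edgeR 4.0.16, limma 3.58.1, DESeq2 1.42.0, Python 3.11.15, pandas 2.3.3, numpy 2.4.6, scipy 1.17.1 and matplotlib 3.10.9. After filterByExpr and TMM, edgeR's quasi-likelihood fit took all 18 samples with 6 group means, and 11 comparisons were drawn from it. SE was the log2 fold change divided by the square root of F. With 3 samples a group, p-values cover the spread between these cultures. CPM values are means ± SD, and CPM per kilobase used the union of exons in GENCODE M21. The code was tested on simulated counts.

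The 9 genes are always named. From the list of 50 others, the genes called in a response, strain or interaction comparison and 9 fixed ones were named where they passed the filter. Of these 9, 1 was not analysed here and another is not reported here. For likeness, the 3 genes with the highest r of log2 CPM (prior count 2) were taken for C1qb, C3, Cfb and C5ar1. The members and lists were chosen with earlier results of these data known. Alternatives were DESeq2's Wald test and size factors, no filter, a filter of 10 counts in 3 samples, no fold threshold, a log2 fold change over 2, the compared groups only, a replicate block and each sample left out. Scaling by library totals was chosen after seeing the data. The labels give 3 h between wash and lysis for ACs, and the study's methods give another time. The study's legend for the sequencing describes a wash and further incubation without setting CpG apart. Proteins and the promoters of C1qa, C2 and Cfb were not analysed here.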

Additional observations from a re-analysis of the deposited data

Results flagged for a closer look

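The response to ACs differed between strains by a test of the difference itself (edgeR's quasi-likelihood interaction, Aec1Aec2 minus B6, adjusted p under 0.05) for 8 of the 9 members, 7 higher and 1 lower, against 19.6% and 18.3% of all genes. On the log2 scale the differences were 0.70 for C1qa, 0.63 for C1qb, 0.47 for C1qc, 1.25 for C2, 2.76 for C3, 1.87 for Cfb, -0.29 for Cfp and 0.25 for C3ar1. The same test found a difference for 6 of the other complement genes named, with values of 2.58 for C4b, 0.76 for Cd55, 0.32 for Cr1l, 1.64 for Itgax, -1.55 for C5ar2 and -0.30 for Cd93. The response to CpG differed between strains for Cfb, by -1.49, and for Cd55, by 1.21. All strain by treatment values use the same control samples for ACs and CpG. Scaled by library totals, 5 of the 9 members passed the test for ACs, 4 higher and 1 lower, against 9.15% and 41.9% of all genes. C1qa (0.36) and C1qb (0.29) still did, at smaller values, C1qc (0.13, adjusted p = 0.24), C2 (0.91, adjusted p = 0.0859) and Cd55 (0.42, adjusted p = 0.226) did not, and C3ar1 and Cr1l changed sign and did not.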

How the results depend on the processing

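Counts of the 9 members called were recomputed under each alternative. With no fold threshold they were 7, 8, 6 and 5 for the AC responses in B6 and Aec1Aec2 and the CpG responses in B6 and Aec1Aec2, 5, 7 and 5 for the strain differences without treatment, with ACs and with CpG, 8 for the strain by AC interaction, and 7 and 7 for ACs against CpG in B6 and Aec1Aec2. With a log2 fold change over 2 the count was 0 for the AC response in B6, 1 for the strain by AC interaction and 0 for the strain by CpG interaction. The AC response in B6 also came to 0 with no filter, with the compared groups only and with library totals. When 1 sample at a time was left out, the count was 0 to 1 for the AC response in B6, 2 to 3 for the strain by AC interaction and 0 to 1 for the strain by CpG interaction, and the remaining 8 comparisons kept their counts. Under library totals, 11 values that had passed the test changed sign: for the AC response in Aec1Aec2, C1qa was -0.057, C1qb -0.015, C1qc -0.10, Cfp -0.069, C5ar1 -0.075 and Cr1l -0.049, for the strain difference with ACs, C3ar1 was -0.067, Itgam -0.10 and Itgb2 -0.083, and for the strain by AC interaction, C3ar1 was -0.089 and Cr1l -0.019. These shifts follow the shift of the median of all genes under that scaling. Deviations of samples of the same strain and number correlated with r of 0.02 to 0.26 (median 0.09), over 0.1 in 9 of 18 pairs. Those of the same strain and different numbers had a median of -0.05, with 0 of 36 pairs over 0.1. In 32 of 36 comparisons of a sample with another group of its strain the highest r was at its own number. Since not every same-number pair was over 0.1, the main fit did not pair samples by number, and whether they are paired is not settled. Between control and CpG in B6 all 3 same-number pairs were over 0.1, and there no block changed a member's side of the test. With the replicate block, no call with the fold threshold changed for a member, while C1qc fell with ACs in B6 (adjusted p = 0.0374, or 0.0237 with the block within strain). The block within strain also brought under 0.05 the adjusted p of C2 for the AC response in Aec1Aec2 (0.0413, so that 9 of 9 members rose) and for ACs against CpG there (0.0492), and of C5ar1 for the strain by CpG interaction (0.0416). With the replicate block the counts of members called were 1, 2, 2, 2, 0, 3, 0, 2, 1, 2 and 0 in the order of the comparisons above, with the strain by CpG interaction after that with AC. Low counts limit C2, C4b, C8g and Masp1.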
